A study of Mus musculus with 30 samples.

Results

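A set of 10 scavenger and efferocytosis receptor genes was followed across Mertk genotypes in mouse retinal pigment epithelium (RPE) and in bone marrow-derived macrophages (BMDMs). They were Cd36, Scarb1, Msr1, Mrc1, Stab1, Lrp1, Timd4, Cd300lf, Marco and Elmo1, taken as the rows whose gene name equals a listed symbol, which gave 10 of the 55573 genes in each tissue's table of normalised counts. A normalised count is the number of reads on a gene divided by a size factor for its library. The genes are other routes by which a phagocyte can bind or take up dying cells and lipid, so the question was whether any was higher where MERTK, the receptor for outer segment uptake in the RPE, had been disrupted.

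The RPE came from mice at P25 (postnatal day 25) with 6 libraries of C57BL/6 wild type (B6 WT), 6 of Mertk-/-V1, 3 of Mertk-/-V2 and 3 of Mertk-/-V3, and the BMDMs came from adult mice with 3 libraries of each genotype. Mertk-/-V1 was made in 129P2 embryonic stem cells by deleting an exon of the kinase domain and keeps its neomycin cassette. It was backcrossed to C57BL/6 and still carries 129P2 sequence around Mertk on chromosome 2. Mertk-/-V2 lacks an exon of the kinase domain. It descends from a floxed line made from C57BL/6NJ embryos and crossed to Rosa26ERT2Cre, with the Cre bred out. Mertk-/-V3 lost early exons through CRISPR in C57BL/6NJ eggs. The labels give C57BL/6J as the strain of every library. Genome-wide typing of single-base variants in the paper found part of the V2 and V3 genomes to be C57BL/6NJ-derived, a larger part in V3. V2 and V3 thus differ from B6 WT in more than Mertk. RPE cells were shaken off the posterior eyecup, so other cells of the eyecup could come with them, and BMDMs were grown from marrow in L929-conditioned medium. The labels call the libraries biological replicates without tying them to animals, so p-values measure the spread between these libraries.

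Efferocytosis is the engulfment of dying cells. Phagocytes recognise phosphatidylserine exposed on such cells either directly, through receptors such as TIM-4 (Timd4) and CD300LF, or through bridging proteins that join it to MERTK, AXL, TYRO3 or integrins. Scavenger receptors bind oxidised lipids and other polyanions: MSR1 and MARCO are class A receptors of macrophages, CD36 and SR-B1 (Scarb1) are class B receptors that also move fatty acids and cholesterol, and stabilin-1 (Stab1) and the mannose receptor (Mrc1) are endocytic receptors of tissue macrophages. LRP1 binds many ligands, calreticulin among them, and ELMO1 works inside the cell, where it joins DOCK proteins to activate Rac and drive engulfment. The RPE takes up the shed tips of photoreceptor outer segments each day, with MERTK for ingestion and CD36 among the receptors linked to the rate of uptake.

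The promoters of Mrc1, Stab1 and Lrp1 are shown because these genes span the contrast between the tissues: Mrc1 and Stab1 had the highest levels in BMDMs, and Lrp1 had the highest level in the RPE. Each is the 250 bases before the gene's start in RefSeq on GRCm38.p6, written 5′ to 3′ on the gene's strand, and capitals mark GAGGAA or its reverse complement TTCCTC, the core bound by the macrophage factor PU.1.
Mrc1, chr2:14229164-14229413, plus strand: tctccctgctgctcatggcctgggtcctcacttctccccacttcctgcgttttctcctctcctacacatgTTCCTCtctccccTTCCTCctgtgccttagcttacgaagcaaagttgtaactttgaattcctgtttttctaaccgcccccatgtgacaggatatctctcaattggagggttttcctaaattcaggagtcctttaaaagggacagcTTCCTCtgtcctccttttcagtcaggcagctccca
Stab1, chr14:31168642-31168891, minus strand: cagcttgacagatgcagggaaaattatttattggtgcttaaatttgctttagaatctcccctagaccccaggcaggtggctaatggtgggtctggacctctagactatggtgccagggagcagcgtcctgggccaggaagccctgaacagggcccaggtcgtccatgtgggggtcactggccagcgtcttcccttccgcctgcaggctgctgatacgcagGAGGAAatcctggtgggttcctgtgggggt
Lrp1, chr10:127621149-127621398, minus strand: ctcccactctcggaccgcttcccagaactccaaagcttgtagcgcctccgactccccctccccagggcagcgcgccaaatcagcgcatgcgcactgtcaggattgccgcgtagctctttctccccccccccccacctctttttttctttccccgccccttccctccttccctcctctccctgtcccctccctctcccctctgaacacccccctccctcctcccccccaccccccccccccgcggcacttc
The core occurred 3 times before Mrc1 and in 1 place before Stab1, and its letters were not in the Lrp1 window. RefSeq's table held promoters for 8 of the 10 members, and 4 of those held the core (Mrc1, Stab1, Cd300lf and Marco), against 23.3% of all 32851 promoters of that length, while CACGTG was in 0 of the 8 and in 6.02% of all. A match of letters is a description only. Msr1 and Scarb1 were named in no row of that table.

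Total reads on genes were 14137666 to 34124049 per RPE library and 16629659 to 25653814 per BMDM library, so that 3 reads corresponded to 2.37 to 5.55 and 2.41 to 3.64 normalised counts, respectively. Mertk itself, summed over the whole gene, was lower in V1 (RPE 1177 ± 295, BMDM 865 ± 18) and V3 (RPE 852 ± 357, BMDM 687 ± 36.1) than in B6 WT (RPE 3202 ± 454, BMDM 2648 ± 233, mean ± SD). It was not lower in the libraries labelled V2 (RPE 4229 ± 945, BMDM 3567 ± 30.7). A sum over the gene does not show the loss of a single exon. At the protein level, the paper could not detect MERTK in V2 or V3 RPE by immunoblot. It also reports MERTK ablation in V2 and V3 BMDMs by flow cytometry. All 7 RPE marker genes were measured in the RPE, and Rpe65, Lrat and Ttr had 0 reads in all 12 BMDM libraries. Rlbp1 and Rgr had at most 3.52 and 0.822 normalised counts in BMDMs. Best1 had 5.71 to 25.4 in BMDMs and 18.5 to 52.9 in the RPE, so it overlapped. Rdh5 had 3.26 to 17.6 in BMDMs and 6576 to 30219 in the RPE. All 14 macrophage markers also had a mean of at least 10 normalised counts in the RPE libraries. V1 replicates 5 and 6 and V3 replicate 1 stood apart: 7 rod genes summed to 357692 to 763445 there and to 27700 to 294270 in the other 15 RPE libraries, and the RPE markers to 183008 to 268296 against 412613 to 845632. Fewer cells of a type and less RNA per cell cannot be told apart in such libraries.

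The receptors ranked differently in the 2 tissues. In B6 WT RPE, Lrp1 led at 58.3 ± 5.5 RPKM (a level per length: the reads on a gene divided by its exon length and by its library's total), followed by Scarb1 at 17.3, and the other 8 members were below 2. In B6 WT BMDMs the order of RPKM levels was Mrc1 (655), Stab1 (554), Cd36 (194), Lrp1 (148), Msr1 (70.6), Scarb1 (22.3), Elmo1 (17.9), Cd300lf (6.07) and Marco (3.70), and of these only Mrc1 and Stab1 overlapped their neighbour over the 3 libraries. Lengths were those of all exons merged. With the longest transcript instead, Scarb1 was at 47.5 and Elmo1 at 2.83 RPKM in the RPE, and Msr1 at 123, Scarb1 at 61.4 and Elmo1 at 41.1 in BMDMs.

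In the RPE the lower members lay close together, with B6 WT means of 1.61 RPKM for Stab1, 1.23 for Elmo1, 1.01 for Cd36, 0.773 for Mrc1 and 0.471 for Cd300lf. Each of these overlapped the next in that order. Timd4 was at 0.0928 and Msr1 at 0.0717 RPKM and overlapped, and Marco had at most 1 read in any RPE library. Set beside each other, with tables scaled separately and no test, the BMDM mean was 984 times the RPE mean for Msr1, 847 times for Mrc1, 343 times for Stab1 and 192 times for Cd36, against 2.54 times for Lrp1 and 1.29 times for Scarb1.

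**Figure D1:**
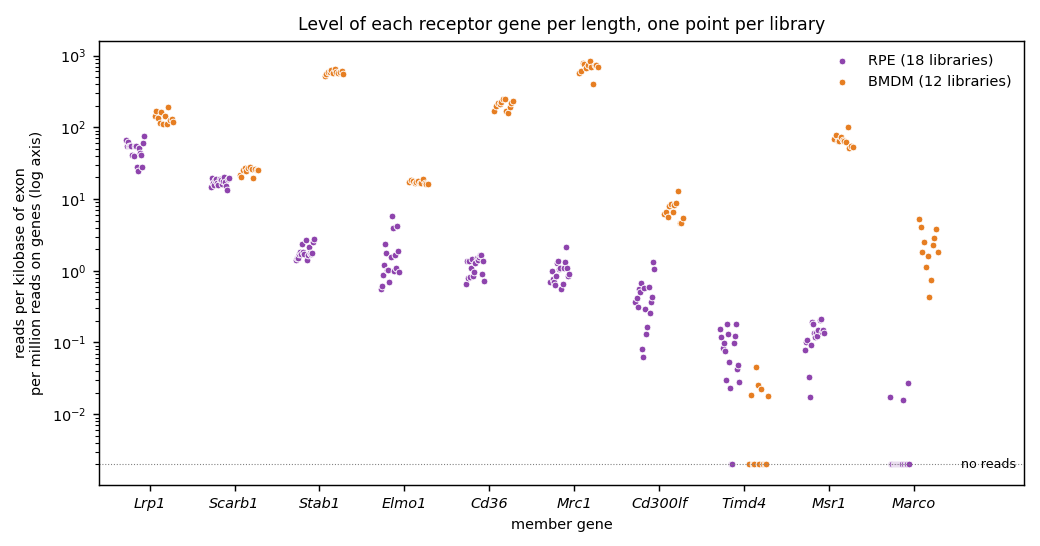
Level of each member in B6 WT and knockout libraries, in RPKM, a level per length (log axis), 1 point per library, RPE beside BMDM. Mrc1 and Stab1 lead in BMDMs at means of 655 and 554 in B6 WT, Lrp1 leads in the RPE at 58.3, and Scarb1 is at 17.3 and 22.3.

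In the RPE, no member passed in any knockout against B6 WT in the main limma test. Of the 8 members with a mean of at least 10 normalised counts (all but Timd4 and Marco), 0 had an adjusted p under 0.05 by limma in V1, V2 or V3, where 0.388%, 0.069% and 0.069% of all 18832 genes tested did, and edgeR and DESeq2 on the recovered reads also gave 0. At an unadjusted p under 0.05, limma had 3 members in V1, 3 in V2 and 2 in V3, against 6.81%, 5.47% and 11.1% of all genes. With the replicate number as a block over all 4 genotypes, 0 members passed in V1 and V2, and 1 member, Elmo1, passed in V3. Of all genes, 131, 706 and 5619 then passed in V1, V2 and V3, rather than 73, 13 and 13. No label states that libraries of the same number are paired. The median log2 difference of the 8 was 0.23 in V1, 0.19 in V2 and 0.31 in V3, beside 0.02, 0.02 and -0.01 over all genes. With so few genes called in the main test, a missed threshold there does not show that a receptor was unaltered. The intervals below give the sizes that these libraries leave possible.

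**Figure D2:**
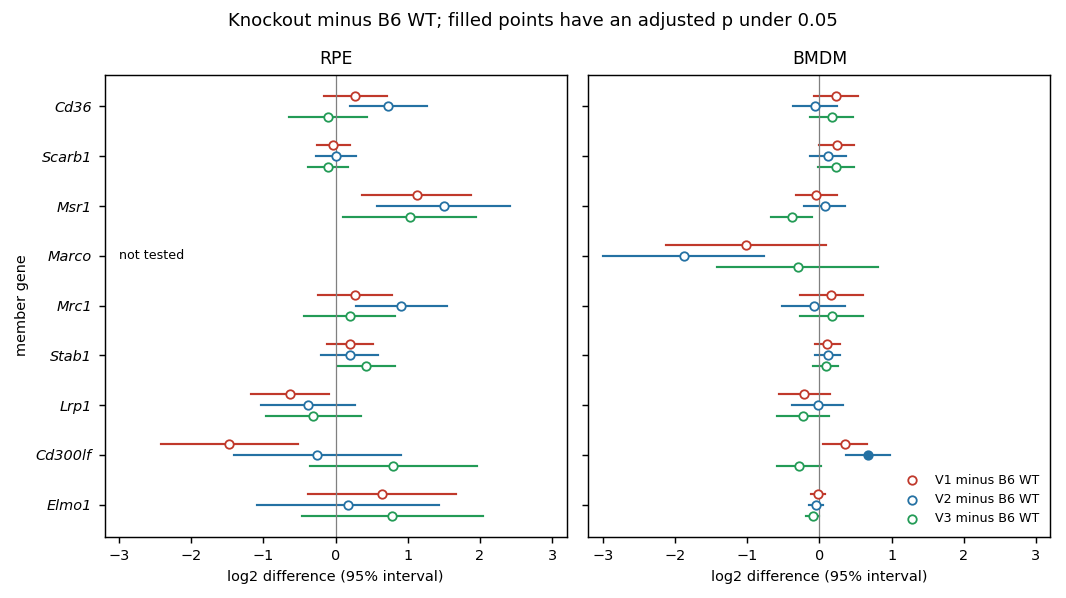
Log2 difference of each knockout from B6 WT with its 95% interval, RPE on the left and BMDM on the right, with filled points where the adjusted p was under 0.05. Cd300lf in V2 BMDMs (0.67) is the only filled point, and the Msr1 intervals in the RPE lie above 0 in V1, V2 and V3.

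Msr1, the class A macrophage scavenger receptor (GRCm38 chromosome 8, 39581685 to 39642673), had the largest positive differences in the RPE, at low counts. In B6 WT its normalised counts ran from 2.62 through a median of 14.1 to 18.5, and in V1 from 18 through 22.4 to 32.9. The V2 libraries had 25, 32.2 and 35.3, and the V3 libraries 21.2, 22.4 and 21.6. Every V2 and V3 library thus lay above every B6 WT library, while V1 and B6 WT overlapped at their edge, where 4.32% of all genes did not overlap in V3 and 1.09% in V1. The counts behind these were 2 to 41 reads per library.

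On the log2 scale, with 1 added to each value, Msr1 differed from B6 WT by 1.13 in V1 (SE 0.36, 95% interval 0.37 to 1.88, adjusted p = 0.345), by 1.5 in V2 (SE 0.44, 0.57 to 2.42, adjusted p = 0.593) and by 1.03 in V3 (SE 0.44, 0.10 to 1.95, adjusted p = 0.449). The mean of the knockouts was 1.22 above B6 WT (SE 0.31, 0.55 to 1.88, adjusted p = 0.269), where 0.127% of all genes passed. With the replicate block Msr1 passed in that comparison, as did 2661 of all 18832 genes. With the mean scaled log2 value of 14 other macrophage markers as a covariate the V1 difference was 0.18, V2 0.88 and V3 0.68, none passing. Without Csf1r, the most abundant of those markers, the sum of 13 was 2166 to 3618 in B6 WT and 4188 to 5238 in V1. That sum was 3347 to 4900 in V2 and 2887 to 3495 in V3, so only V1 did not overlap B6 WT. With Csf1r, every group overlapped B6 WT: the sum of 14 was 8312 to 13718 in B6 WT and 8061 to 13061 in V1. In V2 it was 10583 to 12624 and in V3 7579 to 13065.5, and no marker of the 14 was at 0. The part of these markers in the Msr1 values was not tested beyond the covariate.

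Mrc1 and Cd36 were highest in V2. The mannose receptor gene Mrc1 had 184, 212 and 353 normalised counts in V2, against 95.7 to 176 (median 127) in B6 WT, a log2 difference of 0.91 (95% interval 0.28 to 1.54, adjusted p = 0.713). Cd36, the class B receptor with a role in outer segment uptake, had 149, 150 and 157 in V2, against 67.1 to 134 (median 85.5) in B6 WT, a log2 difference of 0.73 (0.19 to 1.27, adjusted p = 0.766). In neither gene did V2 overlap B6 WT, which held for 3 of the 8 members with Msr1, against 5.66% of all genes tested. The V2 libraries are numbered 1 to 3. In B6 WT, Mrc1 had 124 to 176 in replicates 1 to 3 and 95.7 to 130 in replicates 4 to 6. Cd36 had 67.1 to 134 and 69.5 to 128 in those sets. In V1 and V3 both genes overlapped B6 WT, with Mrc1 at 0.27 and 0.20 and Cd36 at 0.28 and -0.11. The 5 perivascular macrophage markers without Cbr2, the most abundant, summed to 399 to 613 in V2 and to 259 to 394 in B6 WT, with none at 0. With Cbr2, the 6 summed to 3544 to 12012 in V2 (median 6181) and to 2978 to 31268 in B6 WT (median 16157). With the mean scaled log2 value of the 14 macrophage markers as a covariate, the log2 differences of Mrc1 were -0.33 in V1, 0.52 in V2 and -0.02 in V3, and those of Cd36 were -0.27, 0.37 and -0.31, none passing, so both turned sign in V1 and Mrc1 did in V3. The part of these markers was not tested beyond this covariate. The sign also turned for Mrc1 in V3 with the replicate block (-0.11), for Mrc1 in V1 within replicates 4 to 6 (-0.01) and for Cd36 in V3 with array quality weights, where it passed (0.37, adjusted p = 0.0367). In that weighted fit of V3 most of all genes tested passed. Mrc1 is the only member on chromosome 2 (14229392 to 14332057).

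**Figure D3:**
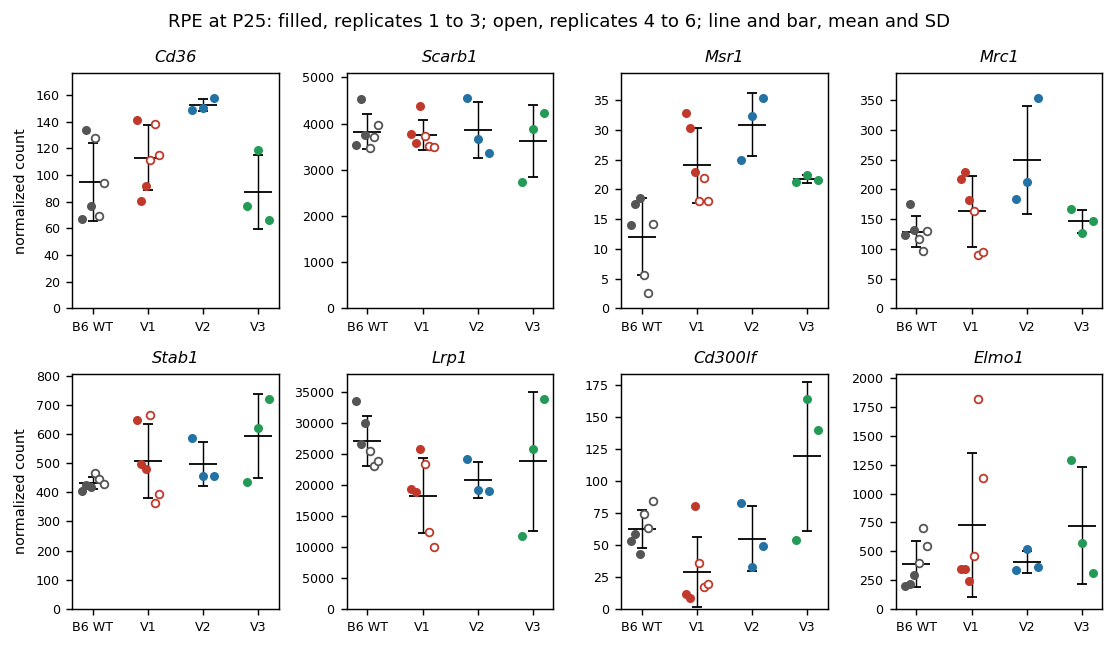
Normalised counts of the members in the RPE by genotype, 1 point per library, each panel on its own axis from 0. Msr1 in V2 (25 to 35.3) and V3 (21.2 to 22.4) lies above the B6 WT range of 2.62 to 18.5, and Cd300lf in V1 spans 8.53 to 80.6.

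Stab1, a clearance receptor of tissue macrophages and sinus endothelium, was steady in B6 WT at 406 to 466.2 normalised counts (median 428). The knockouts reached from 363 to 666 in V1 and 455 to 587 in V2. V3 held 437, 621 and 722, a log2 difference of 0.43 (95% interval 0.03 to 0.82, adjusted p = 0.449) with overlap through its first library. Without the 3 libraries that stand apart the V3 difference was 0.63 (adjusted p = 0.0937). Stab1 shares 112 exonic bases with Nt5dc2 on the other strand, and the sources used here do not give the strand setting of the counting.

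Scarb1, the high-density lipoprotein receptor, had the narrowest intervals of the 8 members in the RPE. All 18 RPE libraries lay between 2740 and 4544 normalised counts, and the log2 differences were -0.03 in V1 (95% interval -0.26 to 0.20), 0.01 in V2 (-0.27 to 0.28) and -0.10 in V3 (-0.38 to 0.18). Differences between -0.38 and 0.28 on the log2 scale thus stay inside the intervals.

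Lrp1 and Elmo1 moved with the libraries that stand apart. Lrp1 had 23045 to 33542 normalised counts in B6 WT (median 26080) and 10024 to 25786 in V1 (median 19071), a log2 difference of -0.63 (95% interval -1.17 to -0.10, adjusted p = 0.631). The 3 libraries with the high rod sums had 10024, 11751 and 12368, below the other 15 libraries at 18788 to 33922. Left out, the Lrp1 difference was -0.31 in V1 and 0.14 in V3, against -0.31 in V3 with them. Elmo1, the engulfment adaptor, had 1822, 1131 and 1287 in those libraries and 198 to 700 in the other 15. Its log2 difference of 0.64 in V1 (-0.38 to 1.67) was -0.05 without them, and that of 0.79 in V3 (-0.47 to 2.05) was 0.25. With the replicate block Elmo1 passed in V3, as did 5619 of all 18832 genes. Elmo1 shares 403 exonic bases with Gm32036 on the other strand, so the unknown strand setting limits its counts as well.

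Cd300lf, an immune receptor for phosphatidylserine and lipids, had its largest negative difference in V1. It had 42.8 to 84.8 normalised counts in B6 WT (median 60.8), and V1 replicates 1 to 6 had 11.2, 8.53, 80.6, 36.2, 17 and 19.1. V1 replicates 1, 2, 4, 5 and 6 were below every B6 WT library, and replicate 3 was within the B6 WT range. In V1 replicate 3, 5 marker genes of neutrophils and monocytes summed to 1407 normalised counts, against 84.0 to 204 in the other RPE libraries. Whether those markers bear on its Cd300lf count was not tested. V2 had 83.0, 33.1 and 49.0, and V3 had 53.5, 165 and 140. The log2 difference from B6 WT was -1.47 in V1 (SE 0.45, 95% interval -2.42 to -0.52, adjusted p = 0.313), -0.25 in V2 (-1.41 to 0.91) and 0.80 in V3 (-0.36 to 1.96). Without V1 replicate 3 the V1 difference was -1.84 with an adjusted p of 0.0364, 1 alternative of 34 in which it passed.

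Cd300lf lies on chromosome 11 (115116214 to 115133992, minus strand) inside Rab37 (115091431 to 115162236, plus strand), a small GTPase gene chosen for description after its values were seen. Rab37 had 1685 to 2481 normalised counts in B6 WT and 275 to 470 in V1, a log2 difference of -2.56 (adjusted p = 3.11e-06), and 1580 to 2434 in V2 and 1108 to 2647 in V3. The genes share 0 exonic bases, but counting without strand could give Cd300lf reads of Rab37, and reads from both cannot be told apart here. Cd300lf was 2.36% to 3.65% of Rab37 in B6 WT and 2.09% to 3.41% in V2. In V1 replicates 1 to 6 it was 2.92%, 3.10%, 23.9%, 8.13%, 3.62% and 6.59%, and in V3 4.83% to 7.19%. In V1 replicates 1, 2 and 5 the ratio was thus inside the B6 WT range. In BMDMs Rab37 was at 6.43 to 20 normalised counts, far below Cd300lf.

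**Figure D4:**
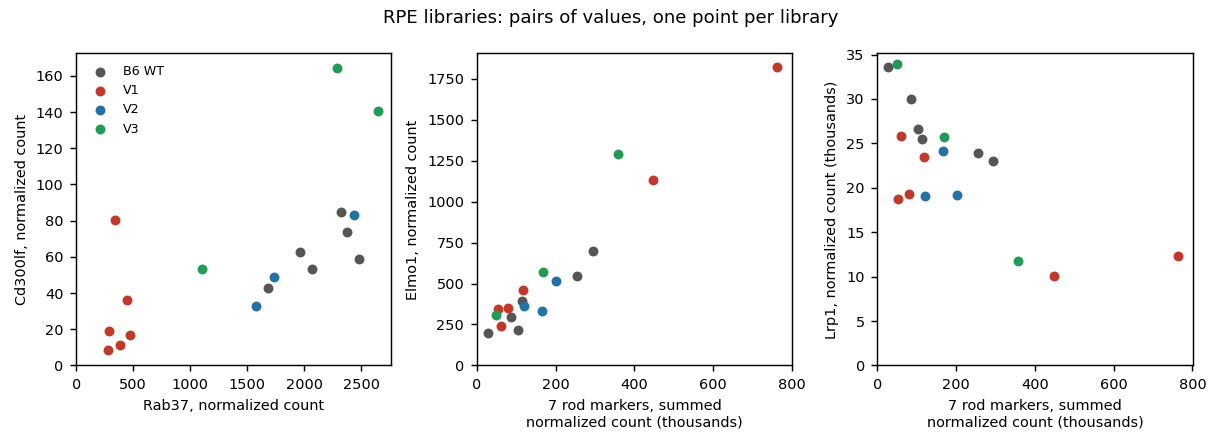
Pairs of values in the 18 RPE libraries, 1 point per library in normalised counts: Cd300lf against Rab37, and Elmo1 and Lrp1 against the summed 7 rod markers. V1 libraries sit at Rab37 counts of 275 to 470, and the 3 libraries with rod sums of 357692 or more hold the highest Elmo1 (1131 to 1822) and the lowest Lrp1 (10024 to 12368).

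Timd4 and Marco were too low in the RPE for a comparison. Timd4, the TIM-4 receptor of resident macrophages, had 0 to 13 reads per library, or 0 to 10.4 normalised counts, with no reads in V1 replicates 5 and 6. Marco had 1 read in each of 3 libraries and 0 in the other 15, where 0 reads allow up to 3 reads, or 5.55 normalised counts at the shallowest library. Such floors and the read totals above cover counting error only.

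Between the knockouts, V1 was set against the mean of V2 and V3. In the RPE 0 of 8 members passed by limma, edgeR or DESeq2, with 1 at an unadjusted p under 0.05 in each against 9.56% of all genes, and 0.207% of all genes passed. Cd300lf was the member with that p, at a log2 difference of -1.75 (SE 0.45, 95% interval -2.69 to -0.80, adjusted p = 0.209), and it passed without V1 replicate 3 (-2.12, adjusted p = 0.0282) and without V3 replicate 1 (-1.99, adjusted p = 0.0482). Msr1 differed by -0.13 (-0.89 to 0.62), Cd36 by -0.04 (-0.47 to 0.40) and Scarb1 by 0.02 (-0.21 to 0.25). In BMDMs 0 of 9 passed, with 0 at an unadjusted p under 0.05 by any of the tools, against 0.991% and 11.8% of all genes, and the members' differences ran from -0.08 to 0.18.

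In BMDMs 1 receptor passed in 1 knockout: Cd300lf rose in V2. It had 849, 926 and 1332 normalised counts in V2 and 643, 673 and 595 in B6 WT, so the groups did not overlap. The log2 difference was 0.67 (SE 0.14, 95% interval 0.37 to 0.97, adjusted p = 0.0186), a fold of 1.60. That was 1 of 9 members tested in V2, where 4.61% of all 13420 genes passed and 2.24% rose, with Cd300lf and Marco at an unadjusted p under 0.05 against 21.4%, and edgeR and DESeq2 also called Cd300lf alone. Leaving out the first B6 WT library gave an adjusted p of 0.0696, leaving out the second gave 0.0547, and a fit of V2 and B6 WT alone gave 0.108. Without V2 replicate 3, the highest library, the difference was 0.48 (adjusted p = 0.0128).

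The other knockouts lay on either side of B6 WT, and their difference from V2 was not tested. In V1 BMDMs Cd300lf had 853, 906 and 698, all above B6 WT, a log2 difference of 0.36 (95% interval 0.05 to 0.66, adjusted p = 0.141). In V3 it had 495, 499 and 581, all below B6 WT, a difference of -0.28 (-0.58 to 0.02, adjusted p = 0.353). No member passed in V1 or V3 by limma, edgeR or DESeq2, against 7.07% and 1.17% of all genes, with 1 in each at an unadjusted limma p under 0.05, against 23.6% and 15.9%. The median over the 9 members was 0.11 in V1, -0.02 in V2 and -0.09 in V3, beside -0.00, -0.00 and 0.00 over all genes.

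Marco, a class A receptor that binds bacteria and particles (chromosome 1, 120474538 to 120505024), had the largest differences from B6 WT in V1 and V2 BMDMs. B6 WT libraries had 206, 156 and 73.3 normalised counts, V1 99.8, 44.0 and 63.0, V2 17, 29.2 and 88.3, and V3 115, 152 and 71.5. Each knockout overlapped B6 WT. The log2 difference was -1.88 in V2 (SE 0.52, 95% interval -2.99 to -0.77, adjusted p = 0.0549), -1.02 in V1 (-2.13 to 0.09, adjusted p = 0.254) and -0.30 in V3 (-1.42 to 0.81). In V2 it passed in 4 of 22 alternatives, among them without V2 replicate 3 (-2.52, adjusted p = 0.00347) and without B6 WT replicate 3 (-2.31, adjusted p = 0.0296).

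**Figure D5:**
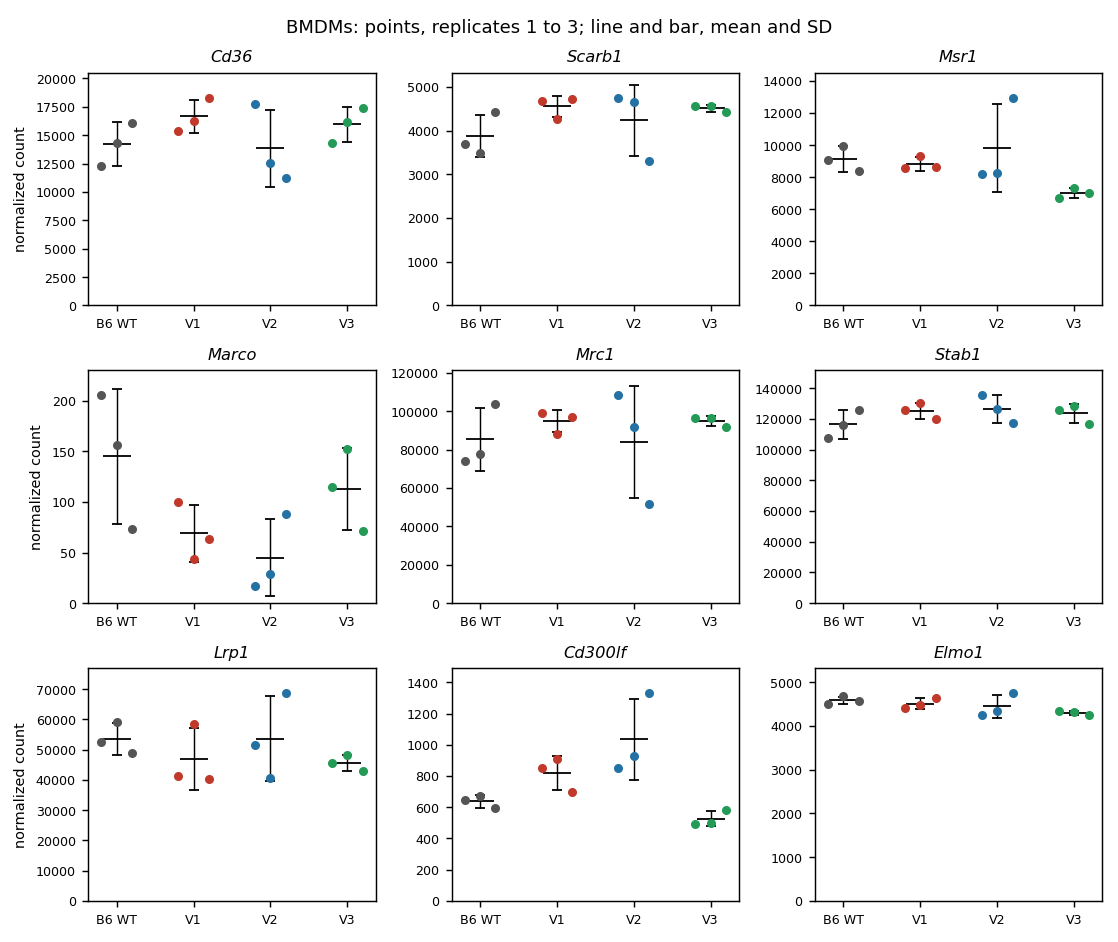
Normalised counts of the members in BMDMs by genotype, 1 point per library, each panel on its own axis from 0. Cd300lf in V2 (849 to 1332) lies above B6 WT (595 to 673), and V2 replicate 3 is apart in Msr1 (12955) and Mrc1 (51447).

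No abundant receptor passed in V3 BMDMs. Msr1 had 6668, 7293 and 7013 normalised counts in V3, below 9049, 9951 and 8373 in B6 WT, a log2 difference of -0.38 (95% interval -0.66 to -0.10, adjusted p = 0.175). Elmo1 in V3 ran from 4238 to 4338, below 4509 to 4672 in B6 WT, a difference of -0.09 (-0.19 to 0.00). Lrp1 in V3 ran from 42882 to 48297, just below 48774 to 59134 in B6 WT. Cd300lf included, 4 of 9 members did not overlap B6 WT in V3, against 25.4% of all genes. Cd300lf alone did not overlap in V1 and in V2, against 30.9% and 22.7%.

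Mrc1 and Stab1 were the most abundant members in BMDMs and none of their differences passed. Mrc1 lay at 73776 to 108227 normalised counts in 11 libraries and at 51447 in V2 replicate 3, which was also the highest for Msr1 at 12955 and for Lrp1 at 68697. Stab1 lay at 107468 to 135264 over all 12 libraries, with log2 differences of 0.11 in V1 (95% interval -0.06 to 0.28), 0.12 in V2 (-0.05 to 0.29) and 0.09 in V3 (-0.08 to 0.26). Cd36 lay at 11240 to 18311 and its differences were 0.23, -0.06 and 0.17. Scarb1 differed by 0.24 in V1 (-0.01 to 0.49), 0.12 in V2 and 0.23 in V3. Without V2 replicate 3 it passed in V2 (0.29, adjusted p = 0.0319), in V1 and over the mean of the knockouts. Timd4 had at most 2 reads in any BMDM library.

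Over the mean of the knockouts, 0 of 9 members passed in BMDMs by limma, edgeR or DESeq2, against 6.65% of all genes. At an unadjusted p under 0.05, limma had 2 (Marco at -1.07 and Cd300lf at 0.25), edgeR 3 and DESeq2 4, against 22.4% of all genes by limma. The corresponding RPE comparison had 2 by limma, Msr1 at 1.22 and Mrc1 at 0.46 (95% interval 0.01 to 0.91), with 2 by edgeR and 3 by DESeq2, against 4.86% of all genes by limma.

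Whether a knockout's effect differed between the tissues was tested as an interaction in edgeR on the recovered reads of all 30 libraries. The test passed for 0 of 9 members in V1, V2 and V3, where 0.158%, 0.0431% and 0.0192% of all 20873 genes passed. At an unadjusted p under 0.05 there were 2, 3 and 1 members, against 7.04%, 8.54% and 4.82%. The 9 include Marco, which had at most 1 read in any RPE library, so its test could hardly pass. Msr1 had an unadjusted p under 0.05 in each, with an RPE effect above its BMDM effect by 1.00 in V1 (adjusted p = 0.420), 1.18 in V2 (adjusted p = 0.333) and 1.17 in V3 (adjusted p = 0.950) on the log2 scale. Cd300lf differed by -1.43 in V1 (adjusted p = 0.614). DESeq2 passed 1 member, Msr1 in V2, where it called 134 of all 20873 genes. It passed 0 members in V1 and V3, where it called 135 and 20 genes. The tests of V1, V2 and V3 share the B6 WT libraries.

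Replicates 1 to 3 and 4 to 6 of the RPE differed in 40.8% of all 18795 genes tested, in a fit of B6 WT and V1 with genotype as a term. The labels name no batch for these numbers. Of 8 members 3 passed, and 4 had an unadjusted p under 0.05 against 51.4% of all genes: Elmo1 was lower in replicates 1 to 3 by a log2 difference of -1.43 (SE 0.29, adjusted p = 0.00736) with no overlap, as 6.63% of all genes were, and Msr1 (0.92, adjusted p = 0.0382) and Mrc1 (0.61, adjusted p = 0.0233) were higher. Without V1 replicates 5 and 6 only Elmo1 passed (-0.99, adjusted p = 0.0244). The 7 rod markers summed to 27700 to 103334 in replicates 1 to 3 and 113500 to 294270 in replicates 4 to 6 of B6 WT, and to 52925 to 79606 and 118230 to 763445 in V1. Within replicates 1 to 3, Msr1 had 14, 17.6 and 18.5 normalised counts in B6 WT and 22.9 to 32.9 in V1. Within replicates 4 to 6 it had 2.62 to 14.1 and 18 to 21.9, so V1 was above B6 WT inside each set, at log2 differences of 0.74 and 1.51, and the V2 and V3 libraries, numbered 1 to 3, differed from B6 WT replicates 1 to 3 by 0.84 and 0.37.

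Several other genes of the pathway passed in V1 RPE, where 0.388% of all genes passed and 6.81% had an unadjusted p under 0.05. Of 23 tested genes for phosphatidylserine recognition, 3 rose and 2 fell: the complement C1q chains C1qb (log2 1.02, adjusted p = 0.00977), C1qc (1.11, adjusted p = 0.0214) and C1qa (1.04, adjusted p = 0.0346) rose, and Mertk (-1.46, adjusted p = 0.00267) and the related receptor Tyro3 (-1.31, adjusted p = 0.00131) fell. The C1q genes are also 3 of the 14 macrophage markers. Of 17 other scavenger receptors, Clec7a, the beta-glucan receptor dectin-1 (1.37, adjusted p = 0.00284), and Scara3 (0.35, adjusted p = 0.0104) rose and 0 fell. Of 21 engulfment genes, the exchange factor Vav1 rose (0.99, adjusted p = 0.0139) and the lipid transporter Abca1 fell (-1.04, adjusted p = 0.00753), and of 8 lipid-sensing nuclear receptors 0 passed, with 1 at an unadjusted limma p under 0.05.

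In the RPE of V2 none of those lists had a gene that passed by limma, where 0.069% of all genes passed. At an unadjusted p under 0.05 it had 4 of 17 scavenger receptors, 5 of 23 genes for phosphatidylserine recognition, 1 of 21 engulfment genes and 0 of 8 nuclear receptors, against 5.47% of all genes. In V3, where 0.069% of all genes also passed, only Mertk did (-2.01, adjusted p = 0.00222). In BMDMs of V1, where 7.07% of all genes passed, 4 of 13 scavenger receptors rose, among them Cd5l (0.92, adjusted p = 0.0403) and the haemoglobin scavenger receptor Cd163 (0.41, adjusted p = 0.0114). There 3 of 19 genes for phosphatidylserine recognition rose and 4 fell, with the bridging protein gene Thbs1 (-1.56, adjusted p = 7.00e-06) falling most after Mertk. In V2 BMDMs, where 4.61% of all genes passed, Cd163 (0.38, adjusted p = 0.0230), Ager (1.253, adjusted p = 0.0243) and Mertk (0.43, adjusted p = 0.00129) rose, and in V3, where 1.17% passed, Cd5l rose (1.19, adjusted p = 0.0361) and C1qa (-0.31, adjusted p = 0.0194), Itgb3 (-0.45, adjusted p = 0.0224) and Mertk (-1.94, adjusted p = 2.54e-10) fell. None of the 20 engulfment genes or 7 nuclear receptors passed in V1, V2 or V3 BMDMs by limma, where at an unadjusted p under 0.05 it had 7, 5 and 6 engulfment genes and 1, 1 and 2 nuclear receptors, against 23.6%, 21.4% and 15.9% of all genes.

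The effect of V1 differed between the tissues for Tyro3 (-2.69 for RPE minus BMDM on the log2 scale, adjusted p = 0.00165), C1qa (1.49, adjusted p = 0.0236), C1qb (1.22, adjusted p = 0.0278), C1qc (1.36, adjusted p = 0.0414), Thbs1 (1.73, adjusted p = 0.0459) and Vav1 (1.04, adjusted p = 0.00877) by edgeR. C1qa rose in V1 RPE and fell in V1 BMDMs. Tyro3 in BMDMs had at most 18 normalised counts in any library.

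The genes whose log2 values followed each member most closely across the libraries, with genotype means removed, were described by Pearson's r, over libraries that share depth and cell make-up. Over 18 RPE libraries Elmo1 followed the microtubule protein gene Map1b (r = 0.99), Lrp1 followed Lrp2 (0.97) and Notch2 (0.97), Stab1 followed Rin3 (0.91) and Mrc1 followed Nudt2 (0.91). The nearest genes of Msr1 (Oard1, 0.83) and Cd36 (Mpg, 0.78) were less alike. Over 12 BMDM libraries Mrc1 followed Abca1 (0.99), Cd36 followed the oxidase subunit gene Cybb (0.99), Cd300lf followed the transglutaminase gene Tgm2 (0.97) and Marco followed Tpgs2 (0.98).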

How the data were processed

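Per the study's methods, paired reads were trimmed with btrim and mapped with STAR to GRCm38, and DESeq2 was run on the counts; the counting tool, its strand setting, the annotation and the versions are not given in the sources used here. The authors deposited 1 table per tissue of normalised counts, a signal equal to reads divided by DESeq2's size factor, each tissue scaled separately. Whole reads were recovered for 100% of values (within 0.01 of a whole number), and 0 columns lacked a sample. Total reads were 14137666 to 34124049 per RPE library and 16629659 to 25653814 per BMDM library.

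Groups came from GEO's labels. The main test was limma 3.58.1 (lmFit, eBayes with trend; R 4.3.3) on log2(value + 1), with the 4 genotypes of a tissue in 1 fit, genes with a mean of at least 10, and Benjamini-Hochberg adjustment over all genes tested; a member passed with an adjusted p under 0.05. The tissue difference was an interaction in edgeR 4.0.16 on the recovered reads. DESeq2 1.42.0, other scalings, filters, covariates, weights, blocks and leaving out libraries were alternatives, and leaving out the 3 RPE libraries that stand apart was chosen after seeing the data. Lengths and positions came from GENCODE M21, which held 55480 of the 55573 identifiers. The scripts were tested on simulated data.

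In the RPE, all 6 same-numbered pairs of B6 WT and V1 deviated together (correlation 0.119 to 0.724). No other comparison had such a pattern over all pairs. In only 1 of the 6 pairs was the same-numbered library the best match, so these correlations do not show a pairing by number. Whether the difference between the sets of replicates described above has a part in them was not tested. No label states a pairing. The members and pathway lists were chosen with earlier results of these data known. The text names all members, Mertk, and at most 5 genes of a list with the smallest adjusted p; Rab37 was added after its values were seen.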

Additional observations from a re-analysis of the deposited data

Results flagged for a closer look

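Of 19 groups of 4 to 10 libraries checked for the members, 2 held a library far from the others by Dixon's criterion, where chance gives about 1 in 20. Scarb1 in RPE V1 replicate 3 had 4376 normalised counts, and the nearest of the other 5 libraries had 3775, a gap of 0.688 of the range against a critical value of 0.625. Marco in RPE B6 WT replicate 1 had 0.933 normalised counts, which is 1 read, and the other 5 libraries had 0.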

How the results depend on the processing

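Over 14 comparisons, the number of members passing was the same in 117 of 136 alternatives and in 231 of 252 fits that left out 1 library. Array quality weights moved it most, to 2 in RPE V2, 5 in RPE V3 (where 12592 of all genes passed, against 13), 1 in RPE V1 against the mean of V2 and V3, 2 in the RPE knockout mean, 2 each in BMDM V1, V2 and V3, and 3 in the BMDM knockout mean. Quantile normalization gave 2 in BMDM V2, adding the study's fold threshold gave 0 there, and a fit of only the groups compared gave 1 in BMDM V1, 0 in V2 and 1 in V3. DESeq2 gave 1 for the V2 difference between tissues, where 134 of all 20873 genes passed. The alternative chosen after seeing the data, without the 3 libraries that stand apart, gave 1 in the comparison of replicates 1 to 3 with 4 to 6. Of these fits, only the weighted RPE V3 fit and the DESeq2 fit have their number of all genes given here. The counts are therefore not read as results about the members. The cause of these moves was not tested.

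The replicate block gave 1 in RPE V3 (Elmo1, with 5619 of all genes), 1 in RPE V1 against V2 and V3 (Cd300lf, with 2329), 2 in the RPE knockout mean (Msr1 and Elmo1, with 2661) and 1 for the V3 difference between tissues (Elmo1, with 1581). Samples there share only a number. The block changed no other count of members.

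Leaving out 1 library gave 0 to 1 in RPE V1 (1 without V1 replicate 3), 0 to 1 in RPE V1 against V2 and V3, 0 to 2 in BMDM V1, 0 to 3 in BMDM V2, 0 to 1 in BMDM V3, 0 to 1 in BMDM V1 against V2 and V3, and 0 to 3 in the BMDM knockout mean, the highest of each BMDM range without V2 replicate 3, where Scarb1 was among those gained in V1, V2 and the knockout mean. It gave 1 to 4 between replicates 1 to 3 and 4 to 6, with 1 without B6 WT replicate 5 or V1 replicates 1, 2 or 6, 2 without any one of B6 WT replicates 1 to 4, and 4 without V1 replicate 3 or 4. Shares of all genes passing in these fits are not given here, so these counts are not read as results about the members.

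Over all genes, DESeq2 called 202 in RPE V1, 55 in V2 and 62 in V3, against 73, 13 and 13 by limma, and 401 in BMDM V3, against 157. At 2 to 41 reads per RPE library, Msr1 is the member whose precision depth limits most among those tested.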
